A study of Rattus norvegicus with 6 samples.

Results

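The genes described here are those of respiratory complex I whose names begin with Nduf: the nuclear-encoded subunits of the enzyme and the factors that assemble it. They were taken by name from a table of gene expression in cultured rat oligodendrocytes, the myelin-forming cells of the brain, and 51 of the 20422 listed genes carried such a name. By prefix, 15 entries were core (Ndufs and Ndufv), 29 were accessory (Ndufa, Ndufb and Ndufc) and 7 were assembly factors (Ndufaf). The cells were primary cultures from brains of postnatal day 1 rats, with no genetic change named. There were 3 libraries from cells given 0.01 mM water-soluble cholesterol for 12 h and 3 libraries from cells given phosphate-buffered saline (PBS) for 12 h. Water-soluble cholesterol is usually a complex with a cyclodextrin carrier, and a carrier-only group was not analysed here. The labels do not say whether the 3 libraries of a group came from separate animals or separate cultures, so a p-value here weighs a difference only against the scatter of these libraries, which may be technical.

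Complex I is the entry point of the mitochondrial respiratory chain. It takes electrons from NADH, passes them through a flavin and a chain of iron-sulfur clusters to ubiquinone, and pumps protons across the inner membrane. Its catalytic core is shared with bacteria and is encoded partly in the nucleus and partly in mitochondrial DNA, the accessory subunits surround and stabilise that core, and the assembly factors help to join the modules and do not stay in the finished enzyme. Oligodendrocytes that are differentiating are known to depend on mitochondrial respiration while they make myelin. The roles given below are those described for the human or bovine proteins.

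Complex I transcripts were more often higher than lower after cholesterol. In edgeR's quasi-likelihood test over all genes, with Benjamini-Hochberg adjusted p under 0.05 as the threshold, 25 of the 50 members tested rose and 0 fell, against 20.5% of all 16182 tested genes that rose and 19.7% that fell. At an unadjusted p under 0.05, 31 members were higher and 0 lower, beside 4001 and 3826 of all 16182 genes. DESeq2 called 24 members higher and 0 lower, beside 20.6% and 20.7% of all genes, and limma on log2(FPKM + 1), where FPKM is the deposited level scaled to transcript length and library size, called 29 higher and 0 lower, beside 21.5% and 18% of all genes. With each library scaled to its median gene, 16 of the 50 rose and 0 fell, beside 15.6% and 25.7% of all genes. When only genes with a mean of at least 5 FPKM were tested, 29 of 42 members rose and 0 fell. Of all genes at that level, 28.1% rose and 27.2% fell. The changes were small: the median log2 fold change (cholesterol over PBS) was 0.18 over the 50 members and 0.01 over all genes (0.12 and -0.06 with the median scaling), and 11 of the 25 that rose reached 1.2-fold. Leaving out each library in turn kept the call of 15 of the 25 members in all 6 fits; the other 10, among them Ndufs3, Ndufs8 and Ndufaf6, lost it in at least 1. All 3 cholesterol libraries lay above all 3 PBS libraries in 29 members and below them in 1, against 26.6% and 25.7% of all genes tested. As these are bulk samples, more transcript per cell and a larger share of cells rich in the transcript cannot be told apart.

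**Figure D1:**
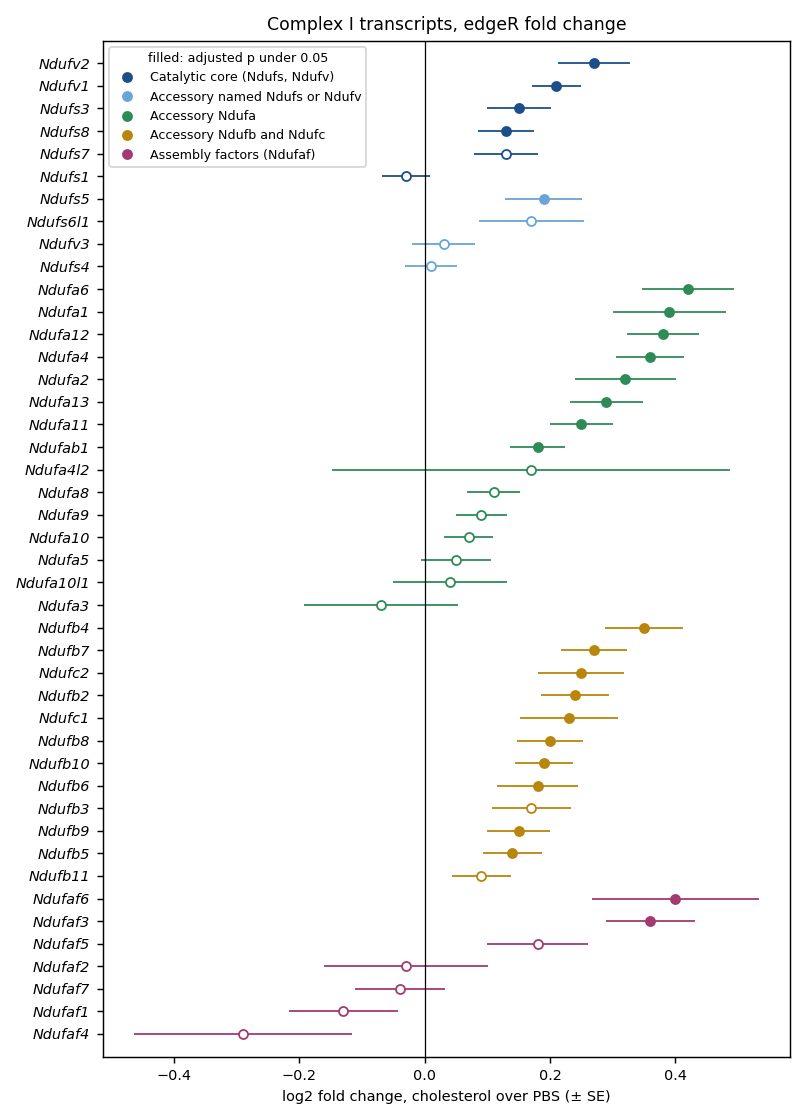
Log2 fold change, cholesterol over PBS, with its standard error, of the complex I entries not marked as pseudogenes, by class from catalytic core at the top to assembly factors at the bottom; filled points have an adjusted p under 0.05, and 1 entry is not drawn. Of all 45 such entries, 25 rose, with values from 0.13 (Ndufs8) to 0.42 (Ndufa6), and none of the 20 others fell past the threshold.

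The libraries held 63769532 to 70878378 counts, and all 10 markers of the labelled oligodendrocyte lineage were measured. These summed to 23738 to 27423 CPM (counts scaled to a common library size, here by the trimmed mean of M-values) in cholesterol libraries and 15497 to 15857 CPM in PBS libraries, with 5 of 10 higher and 1 lower. Astrocyte markers summed to 2648 to 2919 CPM in cholesterol libraries and 1726 to 1745 CPM in PBS libraries, with 6 of 8 higher and 1 lower. Microglial markers summed to 229 to 303 CPM in cholesterol libraries and 384 to 410.5 CPM in PBS libraries, with 1 of 10 higher and 8 lower. Neuronal markers summed to 626 to 643 CPM in cholesterol libraries and 700.2 to 729 CPM in PBS libraries (1 of 8 lower, Map2, which carries the lower sum; the other 7 had positive log2 fold changes, none past the threshold, and the median was 0.15), endothelial markers to 12.5 to 14.9 CPM in cholesterol libraries and 15.8 to 17.0 CPM in PBS libraries (1 of 4 lower), and fibroblast and mural markers to 87.5 to 108 CPM in cholesterol libraries and 88.3 to 119 CPM in PBS libraries (2 of 6 higher, 2 lower). Beside these marker counts, 20.5% of all genes tested were higher and 19.7% lower. No marker was at 0 in all libraries. These shifts moved together with the complex I result, and their part in it was not tested.

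A few promoter sequences are shown because nuclear respiratory genes are known for sites of nuclear respiratory factor 1 (NRF1), of the ETS-family factor GABP and of YY1, and because many members moved together. RefSeq promoters of the rat build GRCr8, from 250 bases before the gene start to 50 after it, matched 40 of the 51 members. The letters GCATGCGC (NRF1), searched on both strands, occurred in 4 of these 40 promoters and in 2.47% of 33469 rat promoters. The longer GCGCATGCGC, which holds that motif on both strands, occurred in 3 of the 40 and in 0.852% of all. The windows below are 50 bases, 5′ to 3′ along the gene's strand, with the motif in capitals.
Ndufa11 (chr9:1637503-1637552, plus strand): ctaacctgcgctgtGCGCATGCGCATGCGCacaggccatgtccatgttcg
Ndufa6 (chr7:115750394-115750443, minus strand): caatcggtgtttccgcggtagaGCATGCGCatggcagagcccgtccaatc
Ndufaf4 (chr5:43401617-43401666, plus strand): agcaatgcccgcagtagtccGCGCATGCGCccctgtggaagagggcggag
Ndufaf5 (chr3:147961562-147961611, plus strand): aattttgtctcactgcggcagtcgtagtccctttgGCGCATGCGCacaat

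The ETS letters CCGGAAGT, or their reverse complement, occurred in 3 of the 40 members (3.81% of all promoters). Ndufa13 held a pair of them, and the one nearest the start is shown; that of Ndufs1 is on the reverse strand.
Ndufa13 (chr16:19560476-19560525, plus strand): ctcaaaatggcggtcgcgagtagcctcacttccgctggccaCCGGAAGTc
Ndufb7 (chr19:41477292-41477341, minus strand): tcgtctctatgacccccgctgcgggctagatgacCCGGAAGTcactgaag
Ndufs1 (chr9:72073778-72073827, minus strand): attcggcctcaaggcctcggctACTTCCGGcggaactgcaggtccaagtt

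The YY1 letters AAGATGGC occurred in 9 of the 40 members (3.17% of all promoters), in 8 of them after the start and in Ndufa4l2 from 1 base before it; these letters contain ATG, the start codon. Windows of 30 bases are shown for a member that rose, Ndufb8, and for Ndufs7 and Ndufs4, which did not pass the test.
Ndufb8 (chr1:253362897-253362926, minus strand): cggagaaggtgAAGATGGCggcgtcccggg
Ndufs7 (chr7:10110476-10110505, minus strand): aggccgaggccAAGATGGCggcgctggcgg
Ndufs4 (chr2:47794892-47794921, minus strand): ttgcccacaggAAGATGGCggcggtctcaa

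The letters TCAAGGTCA (estrogen-related receptors) occurred in 0 of the 40 members and 0.433% of all promoters, which says only that these letters are not in these windows. Of the members with a match, 2 of 4 with the NRF1 letters, 2 of 3 with the ETS letters and 3 of 9 with the YY1 letters rose. Beside these stand 25 of all 50 members tested and 20.5% of all genes. The groups are small, and whether members with a match differ from the others was not tested. A match is a description of the letters, not evidence of a bound site.

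The catalytic core encoded in the nucleus has 7 subunits, of which 4 rose (Ndufv1, Ndufv2, Ndufs3 and Ndufs8) and 0 fell. Of all genes, 20.5% rose and 19.7% fell. The median log2 fold change of the 7 subunits was 0.13. DESeq2 called 3 of the 7 higher, with Ndufs8 at an adjusted p of 0.0517. Ndufv1, which binds NADH and the flavin, had 115, 113 and 106 CPM in the cholesterol libraries, against 96.8, 95.6 and 97.3 CPM in the PBS libraries (log2 fold change 0.21 ± 0.0395 SE, adjusted p = 0.00198). Ndufv2, its iron-sulfur partner in the NADH-binding module, had 106, 104 and 91.2 CPM in the cholesterol libraries and 80.0, 83.4 and 86.5 CPM in the PBS libraries (0.27 ± 0.0571, adjusted p = 0.00398). In both genes every cholesterol library lay above every PBS library, and the third cholesterol library was the lowest of its group.

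Smaller changes were found in the arm that carries electrons to ubiquinone. Ndufs3 had 52.3, 58.0 and 53.3 CPM in the cholesterol libraries, against 48.3, 49.5 and 49.8 CPM in the PBS libraries (log2 fold change 0.15 ± 0.0512 SE, adjusted p = 0.0400). Ndufs8, which holds a pair of iron-sulfur clusters, had 55.0, 55.8 and 54.4 CPM in the cholesterol libraries and 51.9, 49.1 and 50.0 CPM in the PBS libraries (0.13 ± 0.0443, adjusted p = 0.0376). The groups did not overlap in either gene, but the call of Ndufs3 was lost without cholesterol library 2 or any single PBS library (adjusted p from 0.0858 to 0.120), and that of Ndufs8 without cholesterol library 1 or 2 or PBS library 2 or 3 (0.0668 to 0.137).

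The other 3 catalytic subunits did not pass, and values of 2 are given. Ndufs7, which helps to form the ubiquinone site, had 92.3, 89.9 and 98.1 CPM in the cholesterol libraries, against 83.2, 82.3 and 91.2 CPM in the PBS libraries (log2 fold change 0.13 ± 0.0506 SE, adjusted p = 0.0713). Ndufs1, which carries several of the iron-sulfur clusters, had 114, 118 and 117 CPM in the cholesterol libraries and 122, 114 and 120.0 CPM in the PBS libraries (-0.03 ± 0.0380, adjusted p = 0.594). The groups overlapped in both. Ndufs7 passed without cholesterol library 2 (adjusted p = 0.0402) or PBS library 3 (adjusted p = 0.0307). The Ndufs7 entry lies inside the span of the Cirbp entry on the same strand and also overlaps Gamt, 2 genes that rose (log2 fold changes 0.24 and 0.72), so that reads could have been divided between them.

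Among the accessory subunits that carry a core prefix (Ndufs4, Ndufs5, Ndufs6l1 and Ndufv3), 1 of 4 rose and 0 fell, with a median log2 fold change of 0.10. That share was near the 20.5% of all genes that rose. Ndufs5, which sits on the intermembrane side, had 48.4, 46.4 and 43.0 CPM in the cholesterol libraries and 41.2, 41.4 and 37.9 CPM in the PBS libraries (0.19 ± 0.0613 SE, adjusted p = 0.0283), with no overlap between groups; the call was lost without cholesterol library 1 or 2 or PBS library 1 or 3 (adjusted p from 0.0513 to 0.111). Ndufs4, whose loss in mice gives a model of Leigh syndrome, had 93.7, 102 and 94.7 CPM in the cholesterol libraries and 98.2, 95.4 and 95.0 CPM in the PBS libraries (0.01 ± 0.0417, adjusted p = 0.907). Ndufs6l1, which RefSeq calls Ndufs6, had a log2 fold change of 0.17 (adjusted p = 0.140) and Ndufv3 one of 0.03 (adjusted p = 0.700).

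Of the 15 Ndufa entries not marked as pseudogenes, 8 rose, 0 fell and 7 did not pass, with a median log2 fold change of 0.18. Of all genes, 20.5% rose and 19.7% fell. Ndufa12, a paralog of the assembly factor Ndufaf2, had 33.6, 33.9 and 31.5 CPM in the cholesterol libraries, against 25.8, 24.9 and 25.3 CPM in the PBS libraries (log2 fold change 0.38 ± 0.0577 SE, adjusted p = 0.000473), the smallest p of all members. Ndufa4, now assigned to cytochrome c oxidase despite its name, had 142, 162 and 139 CPM in the cholesterol libraries and 114, 116 and 117 CPM in the PBS libraries (0.36 ± 0.0546, adjusted p = 0.000528). Ndufa6, which anchors an acyl carrier protein and whose promoter holds NRF1 letters, had 25.0, 28.5 and 25.3 CPM in the cholesterol libraries and 19.3, 19.0 and 20.8 CPM in the PBS libraries (0.42 ± 0.0730, adjusted p = 0.00120). The groups stood well apart in all 3 genes, and the rise in Ndufa6, by 33.5%, was the largest among the members that passed.

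The other Ndufa members that rose did so by 13.4% to 31.2%. Ndufa13, also known as GRIM-19, had 51.1, 55.2 and 48.4 CPM in the cholesterol libraries and 42.9, 40.8 and 42.7 CPM in the PBS libraries (log2 fold change 0.29 ± 0.0579 SE, adjusted p = 0.00253). Ndufa11, a membrane-arm subunit whose promoter holds the longest run of NRF1 letters shown above, had 58.8, 62.7 and 56.4 CPM in the cholesterol libraries and 48.7, 50.4 and 50.6 CPM in the PBS libraries (0.25 ± 0.0503, adjusted p = 0.00282). Ndufab1, the mitochondrial acyl carrier protein, had 56.7, 55.6 and 55.5 CPM in the cholesterol libraries and 48.0, 50.1 and 49.9 CPM in the PBS libraries (0.18 ± 0.0435, adjusted p = 0.00726). No cholesterol library overlapped the PBS range in any of the 3. Ndufa1, an X-linked membrane subunit, rose by 0.39 on the log2 scale (adjusted p = 0.00579), and Ndufa2, a small subunit with a thioredoxin-like fold, by 0.32 (adjusted p = 0.00975).

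The Ndufa members that did not pass included the most abundant by length. Ndufa9, a dehydrogenase-like subunit near the ubiquinone site and the highest Ndufa entry at 73.5 FPKM, had 127, 124 and 116 CPM in the cholesterol libraries and 114, 114 and 117 CPM in the PBS libraries (log2 fold change 0.09 ± 0.0407 SE, adjusted p = 0.0951). Ndufa4l2, a paralog of Ndufa4 best known as a hypoxia-induced gene, was near the floor of the class at 0.612, 0.751 and 0.683 CPM in the cholesterol libraries and 0.652, 0.582 and 0.584 CPM in the PBS libraries (0.17 ± 0.317, adjusted p = 0.705). The groups overlapped in both genes, and Ndufa9 passed without cholesterol library 3 (adjusted p = 0.0212). Ndufa8 (0.11), Ndufa10 (0.07), Ndufa5 (0.05), Ndufa10l1 (0.04) and Ndufa3 (-0.07) had log2 fold changes of smaller size than Ndufa4l2 and adjusted p-values from 0.0718 (Ndufa8) to 0.750 (Ndufa10l1).

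Of the Ndufb and Ndufc subunits, most of them in the membrane arm, 8 of 10 Ndufb and 2 of 2 Ndufc entries rose and 0 fell. Of all genes, 20.5% rose and 19.7% fell. With scaling to the library median, 4 of 10 Ndufb and 1 of 2 Ndufc entries rose, beside 8 of 15 for Ndufa and 15.6% of all genes. Ndufb4 had 48.4, 48.4 and 42.5 CPM in the cholesterol libraries, against 36.2, 35.7 and 37.7 CPM in the PBS libraries (log2 fold change 0.35 ± 0.0626 SE, adjusted p = 0.00145). Ndufb7, a twin cysteine-motif subunit on the intermembrane side whose promoter holds ETS letters, had 52.9, 56.9 and 50.9 CPM in the cholesterol libraries and 44.9, 44.1 and 43.9 CPM in the PBS libraries (0.27 ± 0.0524, adjusted p = 0.00204). Ndufb2 had 53.0, 52.5 and 48.4 CPM in the cholesterol libraries and 41.4, 44.5 and 44.3 CPM in the PBS libraries (0.24 ± 0.0548, adjusted p = 0.00553). All 3 showed separated groups, with the third cholesterol library the lowest of its group.

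Ndufb10, another twin cysteine-motif subunit, had 65.4, 61.1 and 61.8 CPM in the cholesterol libraries and 53.6, 56.7 and 54.9 CPM in the PBS libraries (log2 fold change 0.19 ± 0.0459 SE, adjusted p = 0.00810). Ndufb8, a membrane-arm subunit often used as a marker of assembled complex I on immunoblots, had 136, 139.5 and 125 CPM in the cholesterol libraries and 113, 111 and 123 CPM in the PBS libraries (0.20 ± 0.0525, adjusted p = 0.0105). The groups of Ndufb8 were separated only by the gap between the third cholesterol and the third PBS library, and leaving out the first or the second PBS library ended its call (adjusted p = 0.0540 and 0.0551). Ndufc2 (0.25), Ndufc1 (0.23), Ndufb6 (0.18), Ndufb9 (0.15) and Ndufb5 (0.14) rose with adjusted p-values from 0.0155 (Ndufc2) to 0.0440 (Ndufb6). Their calls depended on single libraries: Ndufc2 lost it without cholesterol 1 or PBS 1 (adjusted p = 0.0641 or above), Ndufb9 without any library but cholesterol 3 (0.0701 or above), Ndufb5 without cholesterol 1 or 2 or PBS 1 or 2 (0.0924 or above), Ndufb6 without cholesterol 1 or any single PBS library (0.0551 or above), and Ndufc1 without any one of the 6 (0.0512 or above). Ndufb3 (0.17, adjusted p = 0.0566) and Ndufb11 (0.09, adjusted p = 0.175) did not pass. The Ndufb9 entry (7.70 kb) and the Ndufb2 entry (3.28 kb) each carried orthologs of 2 proteins in the deposited annotation, so their counts may join a second transcript to the subunit's own.

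Of the 7 assembly factors, 2 rose and 0 fell, a share near the 20.5% of all genes that rose; 3 had positive and 4 negative log2 fold changes, and the median was -0.03. At an unadjusted p under 0.05, 3 were higher and 0 lower, beside 4001 and 3826 of all 16182 genes. Ndufaf3, which acts early in building the ubiquinone module, had 26.0, 28.5 and 25.2 CPM in the cholesterol libraries, against 19.5, 21.7 and 20.7 CPM in the PBS libraries (0.36 ± 0.0710 SE, adjusted p = 0.00235). Ndufaf6, a factor of the squalene/phytoene synthase family, had 5.21, 5.20 and 4.24 CPM in the cholesterol libraries and 3.70, 3.64 and 3.76 CPM in the PBS libraries (0.40 ± 0.134, adjusted p = 0.0356). Both had separated groups; the call of Ndufaf6 was lost on leaving out any library but the third cholesterol one, with adjusted p from 0.0690 to 0.101.

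Ndufaf4, which works together with Ndufaf3 in the same step, gave 16.0, 16.3 and 22.0 CPM in the cholesterol libraries and 18.5, 29.0 and 19.1 CPM in the PBS libraries (log2 fold change -0.29 ± 0.174 SE, adjusted p = 0.209). Its libraries scattered more than those of its partner, with the third cholesterol and the second PBS library high. Ndufaf1, a member of the assembly complex of the membrane arm, had 9.99, 10.2 and 10.6 CPM in the cholesterol libraries and 11.9, 10.9 and 10.9 CPM in the PBS libraries (-0.13 ± 0.0867, adjusted p = 0.266), the only member whose cholesterol libraries all lay below the PBS libraries. Ndufaf5, which hydroxylates an arginine of Ndufs7, had 15.0, 16.2 and 14.3 CPM in the cholesterol libraries and 12.9, 13.7 and 13.4 CPM in the PBS libraries (0.18 ± 0.0799, adjusted p = 0.0916). Ndufaf4 and Ndufaf5 both hold the longer NRF1 letters in their promoters and had fold changes of opposite sign, neither past the threshold. Ndufaf7, a methyltransferase, and Ndufaf2 had log2 fold changes of -0.04 and -0.03.

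**Figure D2:**
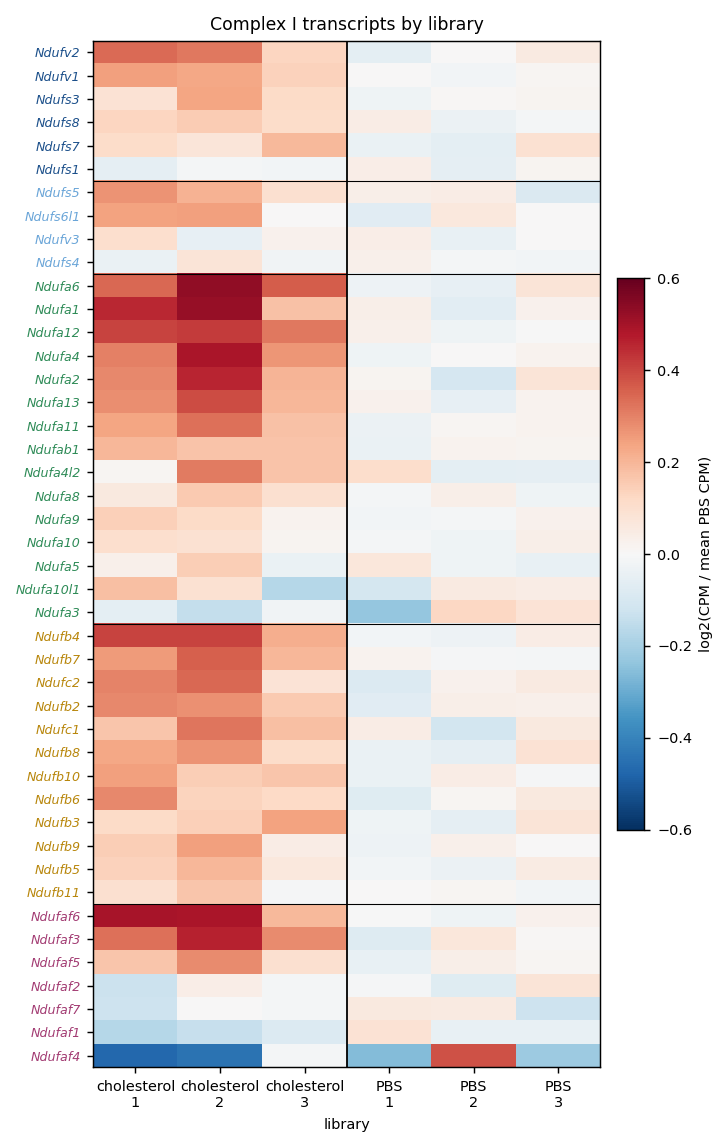
Each row is a complex I entry not marked as a pseudogene and each column a library, coloured by the log2 ratio of its CPM to the mean CPM of the 3 PBS libraries; lines part the catalytic core, the accessory subunits named Ndufs or Ndufv, Ndufa, Ndufb with Ndufc, and the assembly factors, and 1 entry is not drawn. The median over 45 entries was 0.233 in the second cholesterol library and 0.112 in the third, and PBS libraries lay between -0.014 and 0.019.

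The 3 cholesterol libraries were not equal. Over the 45 entries not marked as pseudogenes, the median log2 ratio to the PBS mean was 0.181, 0.233 and 0.112 in cholesterol libraries 1, 2 and 3, against -0.014, -0.012 and 0.019 in the PBS libraries, while the median over all genes tested lay between 0.008 and 0.013 in the cholesterol libraries and between 0.000 and 0.001 in the PBS libraries. Cholesterol library 3 was the lowest of its group in 29 of the 45 entries and library 2 the highest in 27. The same order held in the Ndufa median (0.201, 0.291 and 0.171), and the Ndufb median was 0.240, 0.224 and 0.140. In the assembly factors the cholesterol medians were -0.122, 0.043 and 0.021, against -0.007, 0.036 and 0.007 in PBS. The median coefficient of variation of an entry was 5.98% within the cholesterol group and 3.61% within the PBS group.

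Per length, the levels of subunits were spread over a wide range. The 45 entries ran from 0.624 FPKM (Ndufa4l2) to 151 FPKM (Ndufb8) as means over the 6 libraries, with medians of 37.2 FPKM in the catalytic core, 31.9 FPKM in Ndufa, 51.3 FPKM in Ndufb and 6.70 FPKM in the assembly factors. Ndufb8 averaged 162 ± 8.67 FPKM in the cholesterol libraries and 139.8 ± 7.69 FPKM in the PBS libraries (SD, n = 3 each). Ndufaf3 was the highest assembly factor at 15.2 FPKM. Summed over the 45 entries, the deposited FPKM came to 1741, 1803 and 1660.3 in the cholesterol libraries and 1488, 1499 and 1528 in the PBS libraries, without overlap. The assembly factors summed to 53.8, 57.8 and 56.4 FPKM in the cholesterol libraries and 50.0, 55.7 and 50.7 FPKM in the PBS libraries, where the groups overlapped.

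**Figure D3:**
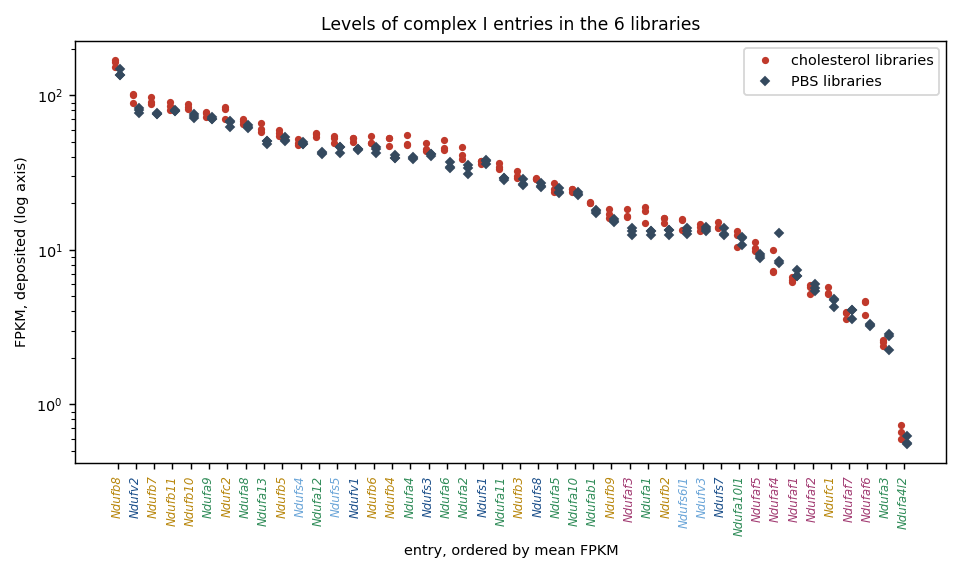
Deposited FPKM on a log axis of the entries not marked as pseudogenes (1 not drawn), ordered by their mean over the 6 libraries, with circles for cholesterol libraries and diamonds for PBS libraries. Assembly factors, with means up to 15.2 FPKM, stand to the right of most subunits, and Ndufa4l2 is the lowest at 0.624 FPKM.

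Most entries for pseudogenes carried little signal, but Ndufa3-ps3 averaged 6.48 FPKM and Ndufs5-ps2 5.23 FPKM over the 6 libraries. RefSeq or the deposited annotation marks 6 of the 51 entries as pseudogenes, among them the one named Ndufs6. Of these, 5 were tested and 0 passed in either direction, by edgeR or DESeq2. At an unadjusted p under 0.05, 1 was higher and 0 lower, beside 4001 and 3826 of all 16182 genes. Limma on log2(FPKM + 1) called 1 higher. Ndufs5-ps1 had the largest log2 fold change of all members, 1.29 ± 0.688 SE (adjusted p = 0.163), from 0.408, 0.191 and 0.155 CPM in the cholesterol libraries and 0.0425, 0.102 and 0.161 CPM in the PBS libraries. Ndufs5-ps2 (log2 fold change 0.44, adjusted p = 0.0609) had separated groups but did not pass. Reads of such near-copies may be shared with the parent gene, here Ndufs5. Ndufa5-ps4, with 4 counts in the first cholesterol library and 0 elsewhere, was not tested. Without these entries, 25 of 45 members rose, and without entries that also overlap another gene or join a second transcript, 16 of 30.

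Complex I transcripts are short, so the fold changes were set against transcript length. Length here is what the deposited count and FPKM of a gene imply, and its median was 1.25 kb over the 50 members and 3.16 kb over all genes tested. Of the members, 25 fell into the shortest length decile of genes (up to 1.24 kb) and 43 into the 5 shortest deciles. Over all genes the median log2 fold change went down along these deciles, at 0.08, 0.12, 0.08, 0.03, 0.03, 0.00, -0.02, -0.05, -0.07 and -0.13 from the shortest to the longest. In the shortest decile 14 of 25 members rose, with a median log2 fold change of 0.25, against 16.9% of all genes there and a median of 0.08.

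By length band, counting entries not marked as pseudogenes, 11 of 13 members under 1 kb rose (median log2 fold change 0.25), against 14.3% of all genes of that length (0.07). From 1 to 3 kb, 11 of 24 members rose (0.16), against 24.5% of all genes (0.07). Above 3 kb, 3 of 8 members rose (0.10), against 18.4% of all genes (-0.05). The 3 long members that rose were Ndufb2, Ndufb9 and Ndufc1, of which Ndufb2 and Ndufb9 are the joined entries named above. The genes of a band were not matched to the members by level. Genes with a mean of at least 5 FPKM were called more often (28.1% higher).

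**Figure D4:**
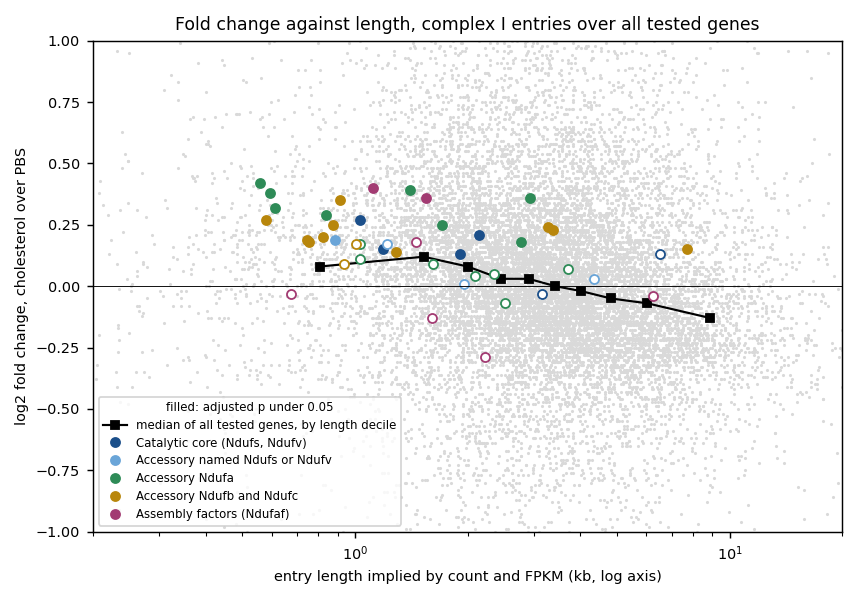
Log2 fold change, cholesterol over PBS, against the length implied by count and FPKM (log axis), for the complex I entries not marked as pseudogenes (1 not drawn; coloured circles, filled where adjusted p is under 0.05) and all tested genes (grey, drawn from -1 to 1 only); black squares are the median of all genes in each length decile. Short genes sat slightly higher (0.08 in the shortest decile, -0.13 in the longest), and 13 members under 1 kb had a median of 0.25.

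A length offset subtracts a fitted trend of counts with length from each library. With it, 19 of the 50 members rose and 0 fell, beside 20% of all genes that rose and 18.4% that fell. At an unadjusted p under 0.05, 1 member was lower, beside 3707 of all 16182 genes with the offset. The trend was only partly removed: with the offset, the median of all genes was 0.05 in the 2 shortest deciles and -0.01 in the longest. Those 2 shortest deciles hold 32 of the 50 members. Of the 25 calls 18 were kept, 7 were lost and 1 was gained. Those lost were Ndufs3, Ndufs5, Ndufs8, Ndufb5, Ndufb6, Ndufc1 and Ndufaf6, with adjusted p-values from 0.0527 (Ndufc1) to 0.252 (Ndufb5). Their log2 fold changes moved by unequal amounts: Ndufc1 had 0.22 with the offset and 0.23 without it, Ndufaf6 0.33 and 0.40, Ndufs5 0.13 and 0.19, Ndufb6 0.13 and 0.18, Ndufs3 0.08 and 0.15, Ndufs8 0.07 and 0.13, and Ndufb5 0.06 and 0.14. Ndufs7 was gained, with a log2 fold change of 0.20 (adjusted p = 0.00969) against 0.13 without the offset. Its implied length was 6.54 kb, for an entry that overlaps Cirbp and Gamt. The joined Ndufb9 entry (7.70 kb) also went up, from 0.15 to 0.24. Whether these lengths are those of the subunits' own transcripts was not tested. Under the offset 3 of 7 catalytic subunits (Ndufs7 among them), 8 of 15 Ndufa and 6 of 10 Ndufb rose. So did 1 of 2 Ndufc and 1 of 7 assembly factors, and the median over the members was 0.14. The assembly median was then 0.02. Ndufa12 (0.35), Ndufa4 (0.33), Ndufa6 (0.39) and Ndufb4 (0.28) kept adjusted p-values of 0.00362 or less.

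Under the median scaling 16 members rose and 0 fell, and all 16 were among the 25. At an unadjusted p under 0.05, 1 was lower, beside 4888 of all 16182 genes. The catalytic calls left were Ndufv1 and Ndufv2, and the assembly call left was Ndufaf3.

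The remaining genes of complex I come from other lists. Of the 7 core subunits encoded in mitochondrial DNA, 2 rose and 0 fell by edgeR, DESeq2 and limma, near the 20.5% of all genes that rose. At an unadjusted p under 0.05 the counts were also 2 and 0, beside 4001 and 3826 of all 16182 genes. Mt-nd3 had 320.0, 352 and 323 CPM in the cholesterol libraries and 259.8, 254 and 281 CPM in the PBS libraries (log2 fold change 0.32 ± 0.0487 SE, adjusted p = 0.000462). Mt-nd2 had 3155, 3374 and 3170.0 CPM in the cholesterol libraries and 2864, 2844 and 2620.2 CPM in the PBS libraries (0.22 ± 0.0405, adjusted p = 0.00163). The groups did not overlap in either. The other 5 lay between -0.05 and 0.06. When libraries were scaled by their median gene, Mt-nd2 and Mt-nd3 stayed higher and Mt-nd5 was lower (-0.11, adjusted p = 0.0120). Mt-nd5 also fell under the length offset (-0.10, adjusted p = 0.0147). These transcripts are cut from polycistronic precursors, and the libraries were selected for polyadenylated RNA.

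Assembly factors without an Nduf name were higher in 5 of 12 and lower in 0, beside 20.5% of all genes higher and 19.7% lower. At an unadjusted p under 0.05, 6 were higher and 0 lower, beside 4001 and 3826 of all 16182 genes. DESeq2 called 5 higher and limma 6, and neither called any lower. Those that rose were Ecsit (0.26, adjusted p = 0.0171) and Tmem126b (0.21, adjusted p = 0.0211), partners of Ndufaf1 in the membrane-arm assembly complex, Timmdc1 (0.21, adjusted p = 0.0109), Tmem70 (0.25, adjusted p = 0.0308) and the membrane insertase Oxa1l (0.20, adjusted p = 0.00615). Ndufaf1 itself and Acad9, another partner (-0.05, adjusted p = 0.524), did not pass. With the length offset 3 of the 12 rose, beside 20% of all genes. With scaling to the library median 2 of the 12 rose, beside 15.6% of all genes. Both counts were near the share over all genes.

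Of 9 regulators of nuclear respiratory genes, 0 rose and 5 fell, beside 20.5% and 19.7% of all genes. At an unadjusted p under 0.05 the counts were also 0 and 5, beside 4001 and 3826 of all 16182 genes. DESeq2 called 0 higher and 5 lower, and limma 0 higher and 4 lower. Gabpa, the DNA-binding subunit of GABP, had 64.5, 69.9 and 64.3 CPM in the cholesterol libraries and 81.7, 79.2 and 80.2 CPM in the PBS libraries (log2 fold change -0.28 ± 0.0441 SE, adjusted p = 0.000638). Its partner Gabpb1 fell by 0.26 on the log2 scale (adjusted p = 0.00359), and the coactivators Pprc1 and Ppargc1b by 0.32 and 0.68 (adjusted p = 0.00358 and 0.0280). Nrf1 had 38.9, 35.7 and 38.3 CPM in the cholesterol libraries and 42.2, 42.6 and 43.3 CPM in the PBS libraries (-0.18 ± 0.0533, adjusted p = 0.0200), but its long entry (9.70 kb) gave -0.06 (adjusted p = 0.336) with the length offset, where Yy1 was lower instead (-0.12, adjusted p = 0.0427). Ppargc1a (0.20, adjusted p = 0.215) and Tfam (0.07, adjusted p = 0.285) had positive log2 fold changes. Under the median scaling 6 of these 9 regulators fell and 0 rose. That scaling called more genes lower in general: 25.7% of all genes fell and 15.6% rose, with a median log2 fold change of -0.06.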

How the data were processed

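RNA was measured by paired-end sequencing of polyadenylated RNA in 6 libraries, 3 with cholesterol and 3 with PBS. Per the submitters' processing notes, the tools were cutadapt 1.9, HISAT2 2.2.1, StringTie 2.1.6, DESeq2 and edgeR with genome build rn6; the role of each, the annotation and any strand setting are not given in the sources used here. Which assembly the deposited gene coordinates follow was not settled, and none are printed. The deposited table holds raw counts and FPKM per gene and library, per the file headers. The counts were tested here with edgeR 4.0.16 (R 4.3.3; filterByExpr, trimmed-mean scaling, glmQLFit and glmQLFTest, two-sided, Benjamini-Hochberg over all 16182 genes tested). Length came from the ratio of count to FPKM; the length offset was a natural spline (4 df) per library. DESeq2 1.42.0, limma 3.58.1 on log2(FPKM + 1) and log2(FPKM + 0.1), other scalings and filters and leaving out each library were alternatives. The scripts were tested on simulated data. Genes given in full were, in each class, the 5 of smallest p, the highest in FPKM, the extremes of fold change and a list of names. The members and all lists were chosen with earlier results of these data known. Depth of 63769532 counts or more puts 3 counts at 0.0470 CPM or less. Sequences come from RefSeq (GRCr8). The values of 1 member, which stays in the counts and medians, are not reported here.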

Additional observations from a re-analysis of the deposited data

How the results depend on the processing

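In no alternative tried did a complex I member fall past the threshold, and no called member changed direction. Among 28 members given in full and 16 alternatives each, 395 values stayed on the same side of the threshold, 38 lost and 11 gained a call. The count of members that rose was 25, and was 16 with scaling to the library median, 16 with the length offset and the replicate number as a block, and 16 without pseudogene, overlapping and joined entries (fewer entries by construction; chosen after seeing the data). Core entries that rose numbered 5, against 2 with scaling to the library median, 3 with the length offset and 3 with the block and offset. Assembly factors that rose numbered 2, against 1 with scaling to the library median, a mean of at least 5 FPKM, the length offset, the block, or block and offset. Except where stated, the cause was not tested. Leaving out each library in turn gave 17 to 27 members, 3 to 6 core, 12 to 19 accessory and 1 to 2 assembly entries that rose; the core count was 3 without cholesterol library 1 or 2 or PBS library 2 or 3, the accessory count was 12 at its lowest, and the assembly count was 1 without any library but cholesterol 3. Same-numbered libraries of the 2 groups did not deviate together (r = -0.00271, -0.0418 and -0.0161). These values cannot tell whether such libraries were prepared as pairs, which the labels do not state. With the replicate number as a block 20 members rose. Depth limits Ndufa4l2 and most pseudogene entries, which are among the members of lowest counts.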
